A study of Mus musculus with 12 samples.

Results

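The DNA replication genes described here are 42 mouse genes whose proteins license origins, unwind DNA, copy it and supply its nucleotides. They were chosen by name and function, though with earlier results of these data known. Ensembl IDs of the expression table were matched to the listed symbols in the GENCODE annotation of the mm10 genome, and all 42 were found among the 38924 IDs. Each of the 42 also passed the filter for testing, at least 1 TPM in at least 4 libraries, which 12718 genes passed in all. TPM is a transcript level corrected for transcript length and scaled to a fixed total in each library, so levels of different genes can be set side by side.

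The values come from bulk RNA-seq of 3 progenitor types sorted from the bone marrow of wild-type female mice of the C57Bl/6J strain, an inbred laboratory strain. LMPP (lymphoid-primed multipotent progenitors) were gated as Lin- Sca1+ cKit+ CD150- CD34+ Flk2hi cells, CLP (common lymphoid progenitors) as Lin- Sca1lo cKitlo IL7Ra+ Flk2+ cells, and GMP (granulocyte-monocyte progenitors) as Lin- Sca1- cKit+ CD150- CD34+ FcgR+ cells. Each type has 4 libraries, 2 in each of 2 batches. The titles do not say what a batch is, and the sources used here give no donor age for the bulk libraries. No treatment, transgene or deletion is named. Whether a type's 4 libraries are different animals, or pools, is unstated, so each p-value speaks only to variation among these libraries, part or all of which may be technical. Below, the values of a type are given for both libraries of batch 1 and then both of batch 2, in the order of their replicate numbers (1 and 2, but 1 and 3 for LMPP of batch 2).

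Before a cell copies its DNA, the origin recognition complex marks origins, and Cdc6 and Cdt1 load the ring-shaped MCM helicase there, a step called licensing that geminin blocks by binding Cdt1. In S phase Cdc45 and the GINS complex join the MCM ring and activate it, primase with polymerase alpha lays down primers, and polymerases delta and epsilon extend them on the Pcna clamp. Ribonucleotide reductase and thymidylate synthase make the nucleotides. Many of these genes are known targets of the E2F transcription factors, and their transcripts are known to be high in dividing progenitors.

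Markers of other cell types were high in some libraries, and the batches differed in them. In CLP, the summed level of 7 pre-B markers was 853 and 31.4 TPM in batch 1 and 4293 and 5476 TPM in batch 2, and all 7 were called higher in batch 2. In LMPP and GMP that sum stayed between 28.0 and 94.0 TPM. Flt3, which encodes the gated protein Flk2, stood at 138 and 146 TPM in CLP of batch 1 but at 8.91 and 17.0 TPM in CLP of batch 2, while Il7r ranged from 76.6 to 130 TPM over the 4 CLP libraries. Fcgr3, a gene of the FcgR gate, was at 130 to 179 TPM in GMP, and Cd34 was at 252 to 382 TPM in LMPP and 102 to 146 TPM in GMP. Haemoglobin and neutrophil granule transcripts were high in batch 2 replicate 1 of LMPP and of CLP, where 5 erythroid markers summed to 19403 and 9005 TPM and 5 neutrophil markers to 23079 and 10620 TPM. In CLP, 3 of 4 erythroid markers tested and 5 of 5 neutrophil markers were called higher in batch 2, 2 of 3 plasmacytoid dendritic markers lower, and 1 of 3 T and NK markers higher. Of the study's own types, 2 of 7 GMP markers were called higher and 1 lower there, 1 of 5 LMPP markers higher and 3 lower, and 1 of 5 CLP markers lower. Flt3 is on both the LMPP and CLP lists, and Cd34 and Kit are on both the LMPP and GMP lists, so these genes were counted in each. Of all genes, 21.3% were called higher and 10.7% lower in CLP of batch 2. Elane, a GMP marker, stood at 3.42 and 1.79 TPM in CLP of batch 1 and at 320.1 and 37.4 TPM in CLP of batch 2. In LMPP, 3 of 5 neutrophil markers were called higher in batch 2. In GMP no erythroid or neutrophil marker was called, but both sums were lower in batch 2 (erythroid 686 and 781 against 27.1 and 117 TPM). Mitochondrial genes and ribosomal RNA together took 11.9% and 16.6% of the TPM in GMP of batch 1 and 22.6% and 20.9% in GMP of batch 2; the other 8 libraries ranged from 18.0% to 31.4%. In bulk samples, fewer cells of a type and less RNA per cell cannot be told apart.

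The promoters of several members hold E2F words, short sequences that E2F factors are known to bind, and are shown because the members are known to be switched on together. RefSeq promoter windows of 300 bases (250 before to 50 after the start site, build GRCm38.p6, the patched release of mm10) were matched for 34 of the 42 members; none was used for Gins1, Gins2, Gins4, Gmnn, Mcm4, Pole, Prim2 and Rfc2. The words TTTCGCGC and TTTGGCGC were searched on both strands. At least 1 of them stood in 10 of the 34 members (29.4%), against 0.929% of 27025 genes with a window. TTTCGCGC alone was in 6 members (17.6%) and 0.374% of genes, and TTTGGCGC in 6 members (17.6%) and 0.585% of genes. The longer upstream sequences below are those of Mcm5 and Mcm6, where both words overlap in a single run; they cover chr8:75109259-75109508 (+) and chr1:128359706-128359955 (−). In Mcm5 the words begin 153 and 149 bases before the start site. In Mcm6 they begin 110 and 106 bases before it, with another copy of TTTGGCGC at 47 bases. Sequences run 5′ to 3′ along the gene, and capitals mark the words on either strand.
Mcm5: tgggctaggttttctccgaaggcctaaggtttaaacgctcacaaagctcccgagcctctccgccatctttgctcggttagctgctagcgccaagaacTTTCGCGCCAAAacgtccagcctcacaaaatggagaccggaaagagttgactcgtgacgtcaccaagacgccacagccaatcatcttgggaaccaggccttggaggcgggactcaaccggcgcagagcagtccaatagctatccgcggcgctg
Mcm6: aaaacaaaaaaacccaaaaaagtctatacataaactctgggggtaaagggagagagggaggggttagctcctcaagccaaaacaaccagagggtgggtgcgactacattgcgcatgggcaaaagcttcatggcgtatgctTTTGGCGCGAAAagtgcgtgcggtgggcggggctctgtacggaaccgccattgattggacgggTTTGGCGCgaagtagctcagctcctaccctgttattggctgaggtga

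In the other 8 members the word is shown with up to 11 bases on each side. It lies before the start site in Orc1 at chr4:108579416-108579445 (+), Rfc3 at chr5:151651200-151651229 (−) and Pola1 at chrX:93632275-93632304 (−). It lies after the start site in Mcm7 at chr5:138171849-138171878 (−), Lig1 at chr7:13278841-13278870 (+), Mcm3 at chr1:20820263-20820285 (−), Cdt1 at chr8:122568036-122568064 (+) and Pole2 at chr12:69228162-69228191 (−).
Orc1: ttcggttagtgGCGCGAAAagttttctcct
Rfc3: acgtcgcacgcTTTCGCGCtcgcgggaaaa
Pola1: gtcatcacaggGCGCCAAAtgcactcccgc
Mcm7: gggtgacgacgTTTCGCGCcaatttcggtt
Lig1: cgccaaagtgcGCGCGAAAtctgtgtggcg
Mcm3: acttgggaagtTTTGGCGCcaag
Cdt1: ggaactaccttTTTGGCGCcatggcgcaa
Pole2: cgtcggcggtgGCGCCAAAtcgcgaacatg

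A shorter E2F word, GGCGGGAA, stood in 6 members (17.6%: Orc4, Mcm3, Prim1, Pold1, Rfc4 and Rrm1) against 2.52% of genes. The CCAAT box, which the factor NF-Y is known to bind, stood in 22 of the 34 (64.7%) against 41.1% of genes. A match is a description of letters in these windows, and a window without a match says nothing about the factor.

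All 42 genes were expressed in all 12 libraries, at levels that differed widely between members. Pcna, the sliding clamp, was highest with a mean of 557.5 TPM over the 12 libraries, ahead of Gins2 at 219 TPM, Lig1 at 217 TPM, Tyms at 192 TPM and Mcm6 at 165 TPM. Gins3 was lowest at 7.36 TPM, followed by Orc1 and Orc5 at 10.8 TPM each. The ratio of the highest to the lowest library was largest for Orc4 (10.0), Rrm2 (7.65), Orc5 (5.48), Lig1 (5.29) and Pold1 (5.07). It was smallest for Rpa2 (1.43), Pola2 (1.59) and Rfc1 (1.62). Batch 2 replicate 2 and replicate 1 of CLP held the highest value of 10 and 9 members, and batch 2 replicate 2 of GMP that of another 9. The lowest value of 11 members was in batch 2 replicate 3 of LMPP.

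**Figure D1:**
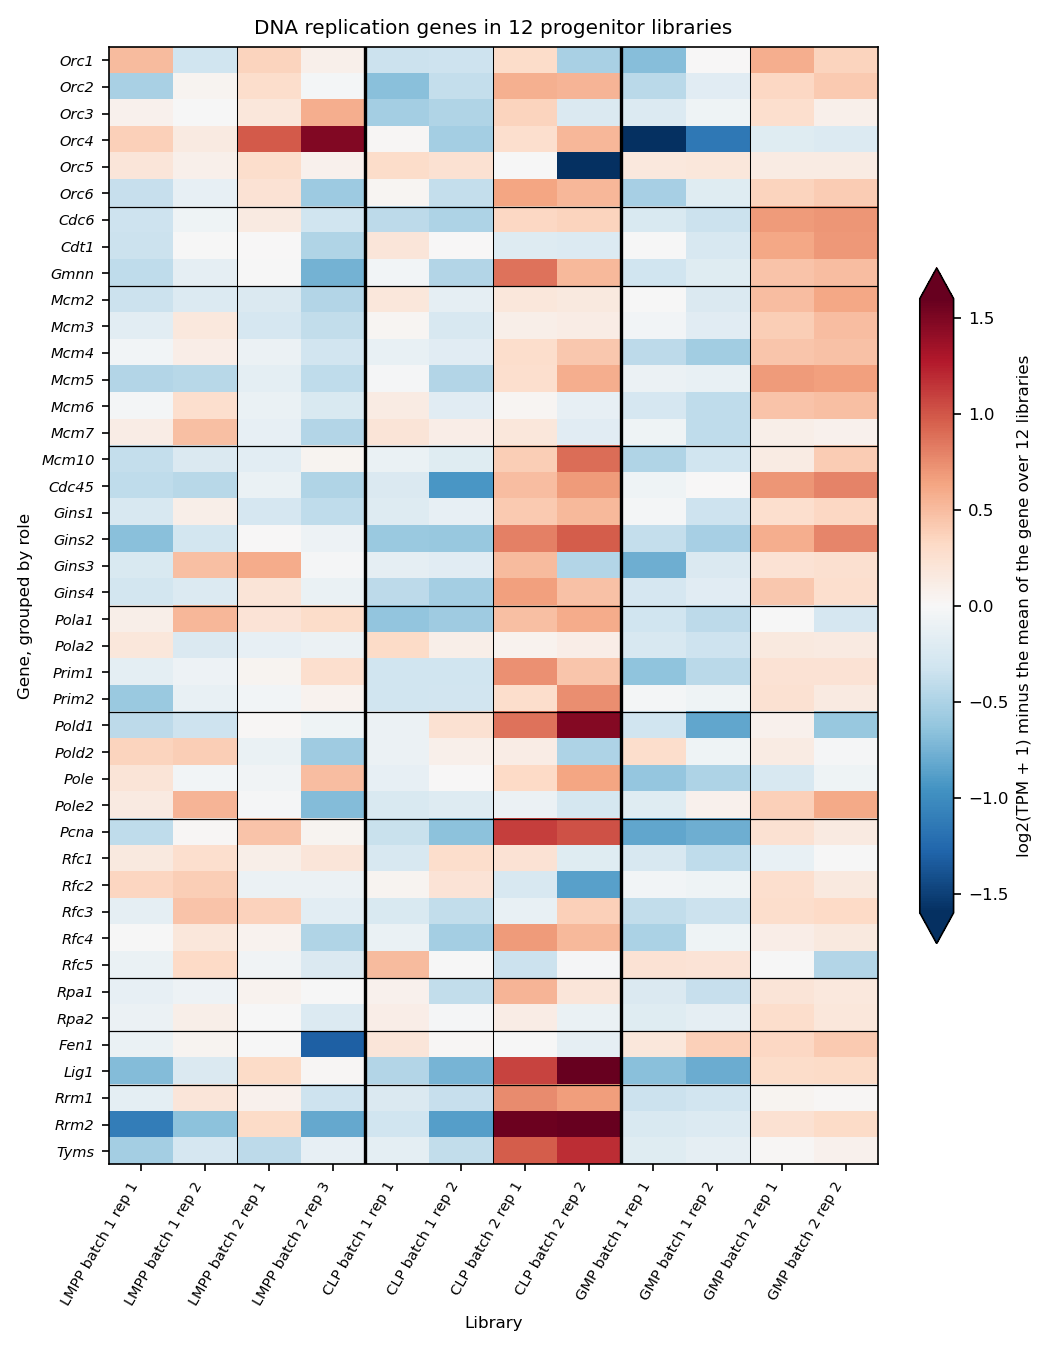
Each row is 1 of the 42 genes, grouped by role, and each column is 1 library; the colour gives log2(TPM + 1) minus the mean of that gene over the 12 libraries. The 2 CLP libraries of batch 2 are red for most genes, GMP turns from mostly blue in batch 1 to mostly red in batch 2, and Orc4 is high in LMPP and lowest in GMP of batch 1.

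With both batches fitted together on the deposited scale, few members were called between the 3 cell types. With limma on log2(TPM + 1), cell type and batch as terms, and Benjamini-Hochberg adjustment over all 12718 genes, 2 of the 42 members were called between LMPP and CLP (1 higher and 1 lower in LMPP) against 10.0% of all genes. Between LMPP and GMP 5 were called (2 higher and 3 lower in LMPP) against 28.9% of all genes, and between CLP and GMP 3 (all higher in CLP) against 23.9%. The median log2 difference of the members was -0.15 for LMPP minus CLP, -0.06 for LMPP minus GMP and 0.05 for CLP minus GMP, beside medians of 0.17, 0.24 and 0.09 over all genes. Relative to the median of all genes, the members' median was -0.32 for LMPP minus CLP, -0.31 for LMPP minus GMP and -0.04 for CLP minus GMP. The 95% interval of the difference lay within 2-fold in either direction for 35, 36 and 36 of the 42 members. Within batch 1 it did so for 34, 33 and 36, and within batch 2 for 23, 26 and 26. The share of members called, 4.76%, 11.9% and 7.14%, was smaller than that of all genes in this fit, but not in every other one. A scaling that sets the median gene to no change (median ratios) called 0 higher and 5 lower in LMPP against CLP. That was 11.9% of members against 9.03% of all genes, with 4.28% of all genes higher and 4.76% lower. Against GMP it called 1 higher and 12 lower (31.0%, against 28.3%), with 13.0% of all genes higher and 15.3% lower. Quantile normalization called 0 higher and 3 lower against CLP (9.67% of all genes, 4.99% higher and 4.68% lower). Against GMP it called 1 and 4 (25.2% of all genes, 12.2% higher and 13.0% lower). Removing mitochondrial and ribosomal RNA genes gave 2 and 1 (9.47% of all genes higher and 2.49% lower) and 4 and 2 (25.5% and 6.04%). In batch 2 alone the share of members was 40.5% between LMPP and CLP (22.5% of all genes) and 31.0% between LMPP and GMP (22.1%). Mcm2 was the single member higher in every CLP library than in every LMPP library (2.27% of all genes), and no member separated CLP from GMP in that way. Orc4, Pola1, Pole and Rfc1 were higher in every LMPP library than in every GMP library (22.7% of all genes), and Mcm5, Cdc45 and Fen1 lower (7.76%).

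**Figure D2:**
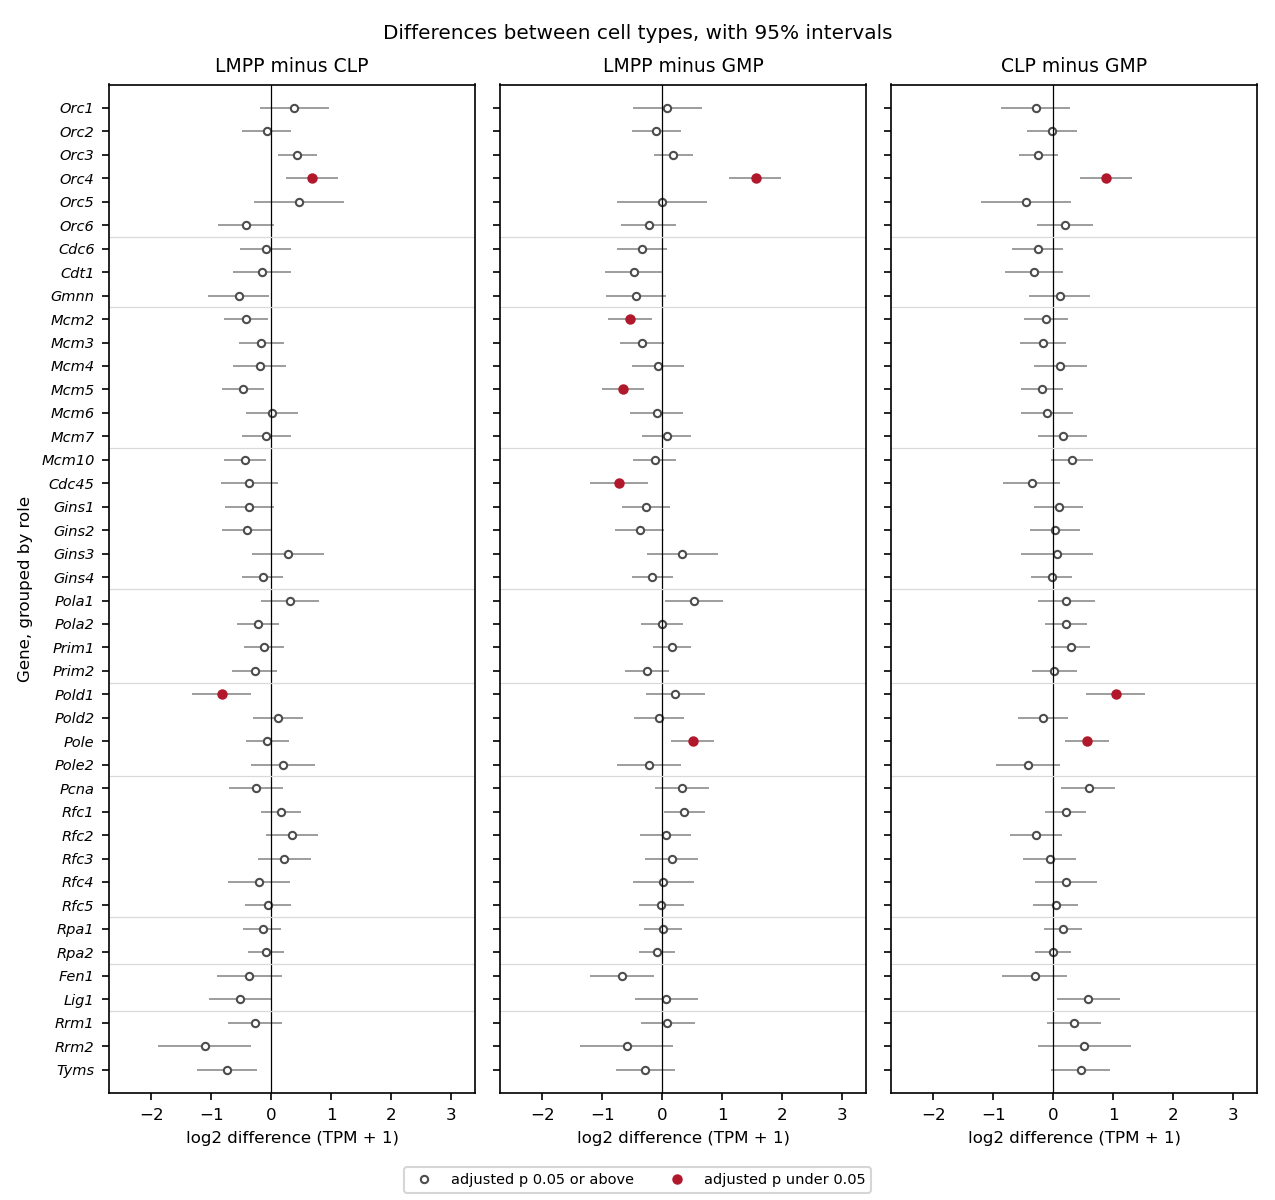
Points are fitted log2 differences of the 42 genes between types on the TPM + 1 scale, with 95% intervals, and filled points have an adjusted p under 0.05. Orc4 stands to the right in all 3 panels (0.68, 1.56 and 0.88), and most other points lie near 0.

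Many members were higher in batch 2 than in batch 1 in CLP and in GMP. In CLP, 21 members were called higher in batch 2 (21.3% of all genes were) and 1 lower (10.7%), with a median log2 difference of 0.60 beside 0.13 over all genes. In GMP, 13 were called higher (6.16% of all genes) and none lower (2.07%; 0 of 42, with 25 of 42 at an unadjusted p under 0.05 by limma in either direction), with a median of 0.56 beside 0.22. In LMPP none of the 42 was called (4.61% of all genes), 8 had an unadjusted p under 0.05, and the median was 0.05 beside 0.15. Both libraries of batch 2 lay above both of batch 1 for 37 members in GMP (48.5% of all genes), 27 in CLP (37.3%) and 12 in LMPP (33.0%). They lay below for 2 in GMP (15.9%), 5 in CLP (24.6%) and 8 in LMPP (18.2%). The summed level of the 42 was 2747 and 2424 TPM in batch 1 and 4927 and 5066 TPM in batch 2 of CLP. In GMP it was 2439 and 2394 TPM in batch 1 and 3783 TPM in both libraries of batch 2. In LMPP the sums were 2615 and 3140.4 TPM in batch 1 and 3325 and 2859 TPM in batch 2, so the batches overlapped.

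The CLP count depended on 1 library most: without batch 1 replicate 2 of CLP it was 12 of 42. With the haemoglobin-rich LMPP and CLP libraries left out it was 25, and within CLP of batch 1 the pre-B sums of 853 and 31.4 TPM went with member sums of 2747 and 2424 TPM. The part of pre-B, erythroid or neutrophil transcripts in the CLP change was not tested. With median ratios the CLP calls were 17 higher and 2 lower, against 15.9% and 14.8% of all genes. With quantile normalization they were 11 higher (26.2%, against 13.3% of all genes) and 7 lower (16.7%, against 13.7%). Without mitochondrial and ribosomal RNA genes they were 23 higher and 1 lower, against 22.0% and 10.1%. The GMP count fell to 2 without either library of batch 1 or without batch 2 replicate 1, to 1 without batch 2 replicate 2, to 2 with median ratios (1.23% of all genes higher) and to 4 with quantile normalization (1.74%), and was 20 without mitochondrial and ribosomal RNA genes (10.4%), whose share was also higher in batch 2 of GMP. The 10 CLP calls that held under every alternative run were Orc2, Gins2, Gins4, Pola1, Prim1, Pcna, Lig1, Rrm1, Rrm2 and Tyms; in GMP only Gins2 did.

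**Figure D3:**
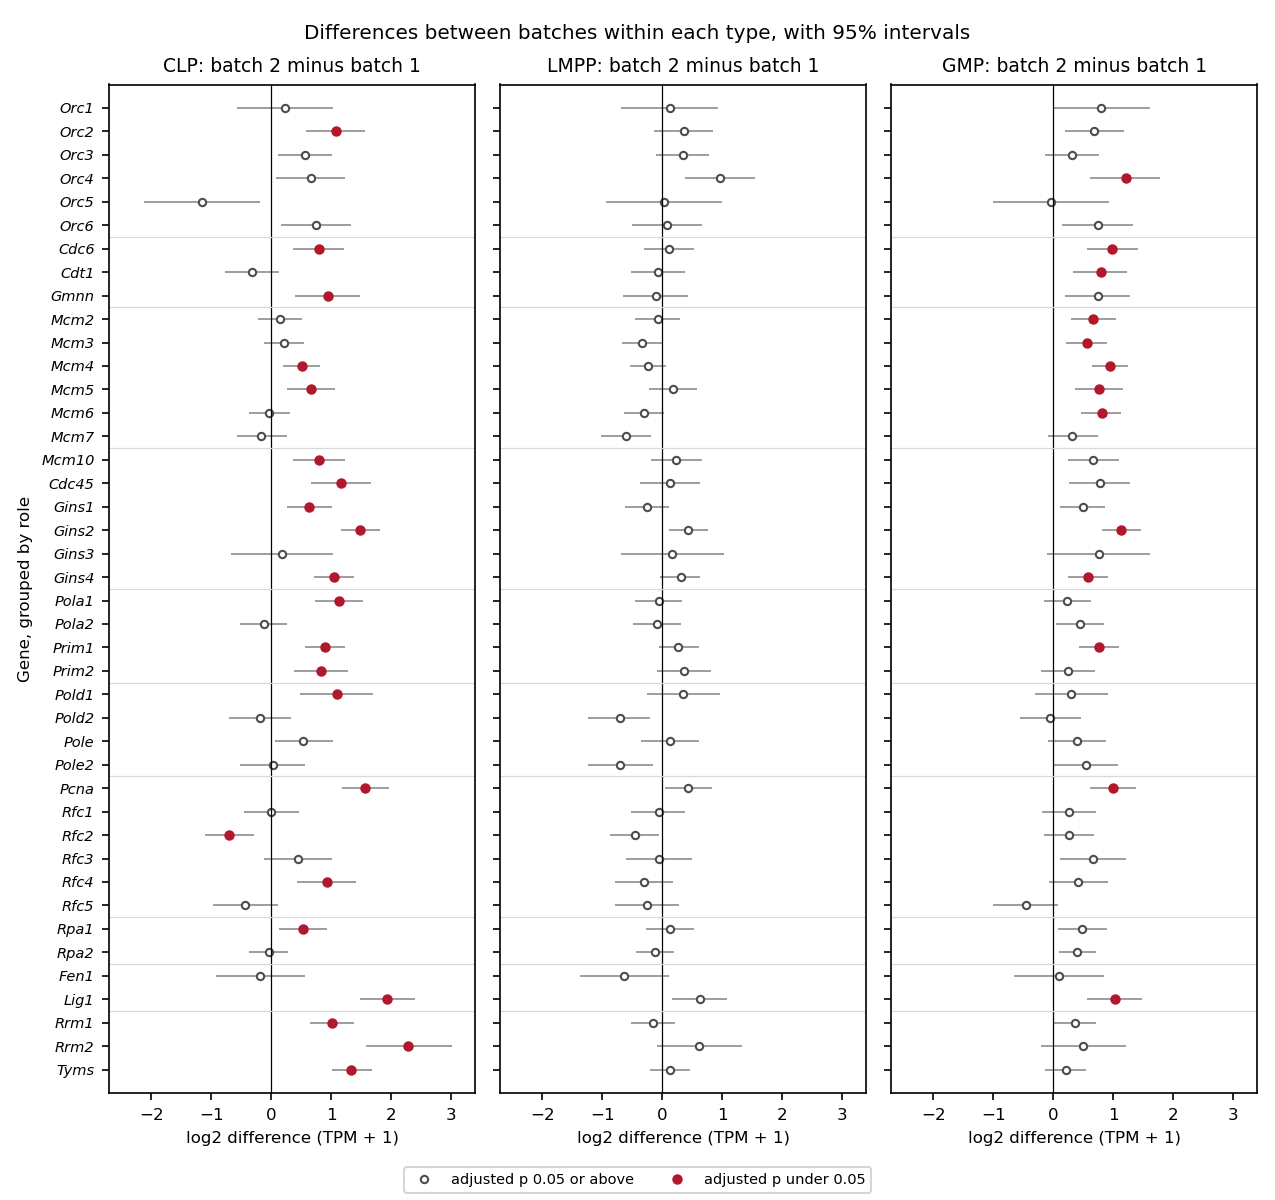
Points are fitted log2 differences of batch 2 minus batch 1 within CLP, LMPP and GMP, with 95% intervals, and filled points have an adjusted p under 0.05. CLP has 22 filled points reaching 2.29 (Rrm2), GMP has 13 filled points in 1 direction, and LMPP has none.

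The origin recognition complex, which marks origins, has 6 subunits. Orc4 (chr2:48902824-48950277), a core subunit of the ring, had the largest difference between types of any member, between LMPP and GMP. It was listed at 33.5 and 28.1 TPM in batch 1 and 51.3 and 72.6 TPM in batch 2 of LMPP, 25.8 and 17.2 TPM in batch 1 and 30.8 and 37.1 TPM in batch 2 of CLP, and 7.25 and 10.96 TPM in batch 1 and 22.1 and 21.7 TPM in batch 2 of GMP. Every LMPP library was above every GMP library, CLP overlapped both, and in each type both libraries of batch 2 were above both of batch 1. The log2 difference was 1.56 ± 0.198 (SE) for LMPP minus GMP (adjusted p = 0.000199), 0.88 ± 0.198 for CLP minus GMP (adjusted p = 0.00713) and 0.68 ± 0.198 for LMPP minus CLP (adjusted p = 0.05 as rounded, just under the threshold). The LMPP and GMP difference held within batch 1 (1.67, adjusted p = 0.0024) and batch 2 (1.44, adjusted p = 0.00484) and under every alternative run. The LMPP and CLP call was lost without any 1 library other than batch 1 replicate 1 of CLP or of GMP, with adjusted p between 0.0583 and 0.133. Orc4 shares 446 exon bases with Acvr2a and 136 with Mbd5 on the other strand, and the sources used here do not state the strand setting of the counting.

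Orc1 (chr4:108579423-108614833), the subunit whose protein is known to turn over with the cell cycle, was among the lowest members at 15.2 and 8.12 TPM in batch 1 and 13.6 and 11.1 TPM in batch 2 of LMPP, 7.91 and 7.99 TPM in batch 1 and 12.97 and 6.91 TPM in batch 2 of CLP, and 6.11 and 10.4 TPM in batch 1 and 16.03 and 13.5 TPM in batch 2 of GMP. The types overlapped, and no difference between types or batches was called (LMPP minus CLP 0.39, interval -0.19 to 0.96). In CLP of batch 2 Orc2 rose by a log2 difference of 1.08 (adjusted p = 0.00481; range 14.03 to 34.4 TPM over the 12 libraries). Orc3 (66.9 to 147 TPM), Orc5 (2.33 to 12.8 TPM) and Orc6 (17.4 to 41.5 TPM) were called in no comparison of types or batches. In GMP of batch 2 the complex had Orc4 as its only called subunit (1.21 ± 0.262, adjusted p = 0.0214), lost without any 1 GMP library (adjusted p 0.0507 to 0.174).

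Cdt1 (chr8:122568015-122573554), which brings the MCM ring to the origin and is destroyed in S phase, was at 23.3 and 29.9 TPM in batch 1 and 30.1 and 21.02 TPM in batch 2 of LMPP, 34.5 and 29.9 TPM in batch 1 and 25.8 and 25.5 TPM in batch 2 of CLP, and 29.8 and 24.8 TPM in batch 1 and 46.4 and 48.8 TPM in batch 2 of GMP. It was higher in both GMP libraries of batch 2 than in all other libraries. Its change between batches was called in GMP (0.79 ± 0.205, adjusted p = 0.0438) and went the other way, uncalled, in CLP (-0.31, adjusted p = 0.27); the difference between these changes missed the threshold (-1.10, adjusted p = 0.0564). The GMP call was lost without any 1 GMP library, either CLP library of batch 1 or either LMPP library of batch 1 (adjusted p 0.0504 to 0.257). Gmnn (chr13:24751845-24761923) encodes geminin, the inhibitor of Cdt1. It was at 50.3 and 60.7 TPM in batch 1 and 66.7 and 39.3 TPM in batch 2 of LMPP, 64.9 and 48.2 TPM in batch 1 and 123 and 96.2 TPM in batch 2 of CLP, and 53.3 and 58.2 TPM in batch 1 and 92.2 and 95.1 TPM in batch 2 of GMP. In CLP it rose in batch 2 by 0.95 ± 0.245 (adjusted p = 0.0148), and the value in GMP was 0.74 (adjusted p = 0.097). The CLP call was lost without batch 1 replicate 2 (adjusted p = 0.118) or batch 2 replicate 1 (adjusted p = 0.0608) of CLP.

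The ratio of Gmnn to Cdt1 within a library does not depend on the library total. It was 1.88 and 1.61 in CLP of batch 1 and 4.75 and 3.78 in CLP of batch 2. In all LMPP and GMP libraries it lay between 1.79 and 2.34, so the 2 CLP libraries of batch 2 stood alone. Cdc6, the ATPase that loads the ring with Cdt1, ranged from 16.2 to 38.6 TPM and was called higher in batch 2 of CLP (0.80) and of GMP (0.99). Over both batches no licensing gene was called between types.

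Mcm2 to Mcm7 form the ring that unwinds DNA, in equal numbers in the protein complex. Their transcripts were unequal: the highest was 2.99 to 5.78 times the lowest within a library, Mcm6 or Mcm7 led in all 12 libraries, and Mcm2 was lowest in 11. Mcm2 (chr6:88883474-88898780) was at 34.6 and 37.8 TPM in batch 1 and 37.5 and 31.5 TPM in batch 2 of LMPP, 50.2 and 39.9 TPM in batch 1 and 50.3 and 49.2 TPM in batch 2 of CLP, and 43.98 and 37.2 TPM in batch 1 and 62.2 and 68.3 TPM in batch 2 of GMP. Every CLP library was above every LMPP library, though batch 1 replicate 2 of CLP at 39.9 TPM was close to the highest LMPP library at 37.8 TPM. Mcm5 (chr8:75109569-75128439) was at 39.5 and 40.2 TPM in batch 1 and 49.4 and 41.3 TPM in batch 2 of LMPP, 54.4 and 39.5 TPM in batch 1 and 66.9 and 82.7 TPM in batch 2 of CLP, and 51.8 and 50.8 TPM in batch 1 and 89.2 and 87.4 TPM in batch 2 of GMP. All GMP libraries lay above all LMPP libraries, and in GMP the batches stood apart.

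Both subunits were called lower in LMPP than in GMP, Mcm5 by a log2 difference of -0.65 ± 0.161 (adjusted p = 0.0103) and Mcm2 by -0.53 ± 0.168 (adjusted p = 0.0328). For Mcm5 the call held without any 1 library, with adjusted p of at most 0.0366. For Mcm2 it was lost without batch 1 replicate 1, batch 2 replicate 1 or batch 2 replicate 2 of GMP, or without batch 1 replicate 1, batch 2 replicate 1 or batch 2 replicate 3 of LMPP (adjusted p 0.0543 to 0.109). The difference was present in batch 2 (Mcm5 -0.95, adjusted p = 0.0056; Mcm2 -0.90, adjusted p = 0.00531) and was not called in batch 1 (adjusted p = 0.187 and 0.54). Against CLP the values were -0.46 (adjusted p = 0.0888) and -0.41 (adjusted p = 0.141).

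Between batches 5 of the 6 subunits rose in GMP (6.16% of all genes were called higher), and the median of the subunits was 0.72. These were Mcm4 (0.94 ± 0.136, adjusted p = 0.0041), Mcm6 (0.81), Mcm5 (0.77), Mcm2 (0.67) and Mcm3 (0.56). Mcm4 was listed at 74.3 and 82.7 TPM in batch 1 and 72.1 and 61.7 TPM in batch 2 of LMPP, 70.6 and 67.6 TPM in batch 1 and 93.4 and 104 TPM in batch 2 of CLP, and 57.4 and 51.8 TPM in batch 1 and 105 and 107 TPM in batch 2 of GMP. Mcm6 was listed at 159 and 196 TPM in batch 1 and 150.2 and 137 TPM in batch 2 of LMPP, 178 and 143 TPM in batch 1 and 166 and 147 TPM in batch 2 of CLP, and 134 and 122 TPM in batch 1 and 222 and 227 TPM in batch 2 of GMP. For both genes the GMP libraries of batch 2 were the highest of all 12, although for Mcm4 by little over CLP of batch 2. Without any 1 GMP library the calls of Mcm2, Mcm3, Mcm5 and Mcm6 were lost (adjusted p up to 0.255, 0.288, 0.172 and 0.111), and that of Mcm4 only without batch 2 replicate 2 (adjusted p = 0.0597). In CLP 2 of 6 were called, Mcm5 (0.67) and Mcm4 (0.51), against 21.3% of all genes, and the median was 0.18. Both calls were lost with median ratios (adjusted p = 0.0823 and 0.146) and with quantile normalization (adjusted p = 0.362 and 0.83). They were also lost without batch 1 replicate 2 (adjusted p = 0.143 and 0.094) or batch 2 replicate 2 (adjusted p = 0.0862 and 0.0727) of CLP. Without batch 1 replicate 1 of CLP the call of Mcm4 was lost (adjusted p = 0.0553). In LMPP no subunit was called and the median was -0.26. Mcm3, Mcm4, Mcm6 and Mcm7 were lower in both LMPP libraries of batch 2 than in both of batch 1, with Mcm7, named here after its values were seen, at -0.61 (adjusted p = 0.0963).

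Cdc45 and the 4 GINS proteins join the MCM ring, and Mcm10 helps to fire it. Cdc45 (chr16:18780447-18811987) was at 25.7 and 25.1 TPM in batch 1 and 32.01 and 24.4 TPM in batch 2 of LMPP, 29.4 and 17.7 TPM in batch 1 and 49.1 and 56.04 TPM in batch 2 of CLP, and 32.95 and 34.7 TPM in batch 1 and 56.8 and 60.5 TPM in batch 2 of GMP. All GMP libraries were above all LMPP libraries, while CLP ranged from below LMPP to within GMP. It was lower in LMPP than in GMP by -0.72 ± 0.22 (adjusted p = 0.0281), a call lost without any 1 GMP library and without either LMPP library of batch 2 (adjusted p 0.0559 to 0.0851). In CLP it rose in batch 2 by 1.17 (adjusted p = 0.00372). Cdc45 shares 209 exon bases with Ufd1 on the other strand.

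Gins2 (chr8:120578633-120589304), by far the most abundant GINS transcript, was at 126 and 163 TPM in batch 1 and 202 and 189 TPM in batch 2 of LMPP, 133 and 131 TPM in batch 1 and 351 and 393 TPM in batch 2 of CLP, and 154 and 139 TPM in batch 1 and 301 and 347 TPM in batch 2 of GMP. The batches stood apart in every type. The log2 difference of batch 2 was 1.49 ± 0.146 in CLP (adjusted p = 0.000102), 1.14 ± 0.146 in GMP (adjusted p = 0.00258) and 0.44 in LMPP, which was not called. Gins2 shares 2758 exon bases with Gse1 on the other strand, a gene listed at 2.24 to 10.1 TPM. The other GINS genes ranged from 3.67 to 93.8 TPM. In CLP of batch 2 Gins4 (1.05), Mcm10 (0.80) and Gins1 (0.64) were also called, making 5 of 6 with Gins3 left, against 21.3% of all genes. In GMP Gins4 was called (0.58), making 2 of 6, against 6.16% of all genes.

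Pola1 (chrX:93304767-93632155), the catalytic subunit of polymerase alpha, was at 38.8 and 53.1 TPM in batch 1 and 42.7 and 44.9 TPM in batch 2 of LMPP, 23.1 and 24.2 TPM in batch 1 and 51.3 and 55.4 TPM in batch 2 of CLP, and 28.9 and 27.03 TPM in batch 1 and 36.4 and 29.99 TPM in batch 2 of GMP. In LMPP the batches overlapped, while in CLP both libraries of batch 2 were above both of batch 1. Within batch 1 it was higher in LMPP than in CLP (0.91 ± 0.179, adjusted p = 0.0203) and than in GMP (0.68, adjusted p = 0.0245). It was the single member called between LMPP and CLP in batch 1. CLP gained it in batch 2 by 1.14 (adjusted p = 0.00117), and Prim1 (0.90) and Prim2 (0.83), the primase subunits, rose beside it. In GMP Prim1 was called (0.76). Pola2, the regulatory subunit of polymerase alpha, ranged only from 19.96 to 31.8 TPM and was called nowhere.

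Pold1 (chr7:44532746-44548849), the catalytic subunit of polymerase delta, was at 34.4 and 36.7 TPM in batch 1 and 46.9 and 44.4 TPM in batch 2 of LMPP, 43.5 and 54.9 TPM in batch 1 and 85.7 and 130.3 TPM in batch 2 of CLP, and 36.96 and 25.7 TPM in batch 1 and 48.5 and 30.1 TPM in batch 2 of GMP. CLP was highest on average (78.6 ± 38.8 TPM, SD, n = 4, against 40.6 ± 6.00 in LMPP and 35.3 ± 9.93 in GMP), with batch 2 replicate 2 far above the others. It was higher in CLP than in GMP by 1.05 ± 0.227 (adjusted p = 0.00575), a call kept without any 1 library. Without both CLP libraries of batch 2 its adjusted p was 0.0516. It was lower in LMPP than in CLP by -0.82 ± 0.227 (adjusted p = 0.0406). That call was lost without any 1 library other than batch 1 replicate 1 of CLP and batch 1 replicate 1 or batch 2 replicate 2 of GMP (adjusted p 0.0524 to 0.103).

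Pole (chr5:110286306-110337474), the catalytic subunit of polymerase epsilon, was at 27.3 and 22.97 TPM in batch 1 and 22.7 and 33.7 TPM in batch 2 of LMPP, 21.5 and 23.7 TPM in batch 1 and 29.9 and 37.3 TPM in batch 2 of CLP, and 15.1 and 16.5 TPM in batch 1 and 19.6 and 22.6 TPM in batch 2 of GMP. All GMP libraries were below all LMPP libraries, and batch 1 replicate 1 of CLP was the single CLP library within the GMP range. It was higher than in GMP by 0.51 ± 0.167 in LMPP (adjusted p = 0.0388) and by 0.57 ± 0.167 in CLP (adjusted p = 0.0277). The LMPP call was lost without any 1 GMP or LMPP library except batch 2 replicate 1 of LMPP (adjusted p 0.0599 to 0.121). The CLP call was lost without batch 2 replicate 2 of CLP or without any GMP library other than batch 2 replicate 2 (adjusted p 0.0548 to 0.0823). Both calls were also lost with median ratios, with quantile normalization and in either batch alone. There the adjusted p was 0.0655 to 0.302 for LMPP and 0.052 to 0.159 for CLP. The accessory subunits Pold2 (31.2 to 62.1 TPM) and Pole2 (16.1 to 40.99 TPM) were called in none of the comparisons over both batches. Of these 4 subunits of polymerases delta and epsilon, Pold1 was the single one called between batches, in CLP (1.10, adjusted p = 0.0122).

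Pcna (chr2:132249162-132253314), the ring that tethers the polymerases, was at 383 and 512 TPM in batch 1 and 695 and 522 TPM in batch 2 of LMPP, 396 and 320.0 TPM in batch 1 and 1094 and 1030.2 TPM in batch 2 of CLP, and 285 and 294 TPM in batch 1 and 601 and 559 TPM in batch 2 of GMP. Both CLP libraries of batch 2 were above all others, of which batch 2 replicate 1 of LMPP was highest. The log2 difference of batch 2 was 1.57 ± 0.177 in CLP (adjusted p = 0.000211) and 1.0 ± 0.177 in GMP (adjusted p = 0.00953), and in LMPP 0.44 (adjusted p = 0.183). The GMP call was lost without any 1 GMP library (adjusted p 0.0628 to 0.0885). Between types Pcna was not called over both batches. CLP minus GMP came nearest (0.59, interval 0.13 to 1.04, adjusted p = 0.0589). Within batch 1 Pcna was called higher in LMPP than in GMP, as given below. The listed pseudogenes of Pcna were at most 0.43 TPM.

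Rfc4 (chr16:23113943-23127737), a subunit of the loader that opens the clamp, was at 87.8 and 100.3 TPM in batch 1 and 91.9 and 62.8 TPM in batch 2 of LMPP, 81.5 and 60.2 TPM in batch 1 and 142 and 127 TPM in batch 2 of CLP, and 61.6 and 84.1 TPM in batch 1 and 95.2 and 97.9 TPM in batch 2 of GMP. It rose in batch 2 of CLP by 0.93 ± 0.22 (adjusted p = 0.01), lost without batch 1 replicate 2 of CLP (adjusted p = 0.0886), and shares 194 exon bases with the abundant Eif4a2 on the other strand. Rfc2 (chr5:134581366-134601805), another loader subunit, was at 70.2 and 72.7 TPM in batch 1 and 51.9 and 51.4 TPM in batch 2 of LMPP, 57.1 and 64.2 TPM in batch 1 and 45.9 and 29.8 TPM in batch 2 of CLP, and 53.6 and 52.8 TPM in batch 1 and 66.5 and 61.5 TPM in batch 2 of GMP. It was the single member called lower in batch 2 of CLP (-0.70 ± 0.186, adjusted p = 0.0172), lost without batch 1 replicate 2 (adjusted p = 0.108) or batch 2 replicate 2 (adjusted p = 0.079) of CLP. Rfc2 shares 952 exon bases with Lat2 on the other strand. Rfc1 (38.7 to 62.8 TPM), Rfc3 (35.8 to 65.5 TPM) and Rfc5 (19.9 to 39.9 TPM) were called in no comparison.

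Rpa1 and Rpa2 encode subunits of the protein that coats unwound DNA. Rpa1 ranged from 44.3 to 85.8 TPM and was called higher in CLP of batch 2 (0.53, adjusted p = 0.0478), a call lost without 10 of the 12 libraries taken singly (adjusted p up to 0.319). Rpa2 ranged from 63.3 to 90.2 TPM, the narrowest of the 42 by the ratio of highest to lowest library, and was called nowhere.

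Lig1 (chr7:13277283-13311433), the ligase that seals the fragments of the lagging strand, was at 116 and 159 TPM in batch 1 and 234 and 191 TPM in batch 2 of LMPP, 135 and 112 TPM in batch 1 and 397 and 569 TPM in batch 2 of CLP, and 118 and 108 TPM in batch 1 and 229.6 and 232 TPM in batch 2 of GMP. In every type both libraries of batch 2 were above both of batch 1, and CLP of batch 2 stood above all others. The log2 difference of batch 2 was 1.94 ± 0.205 in CLP (adjusted p = 0.000149) and 1.03 ± 0.205 in GMP (adjusted p = 0.015), and 0.63 in LMPP, not called. The GMP call was lost without any 1 GMP library (adjusted p 0.082 to 0.122). Lig1 shares 247 exon bases with Zswim9 on the other strand, a gene of 1.44 to 8.69 TPM. Fen1, the nuclease that trims the fragments, ranged from 8.46 to 30.3 TPM and was called nowhere. The ratio of Lig1 to Fen1 within a library was 5.27 and 4.95 in CLP of batch 1 and 17.8 and 28.3 in CLP of batch 2. It was 5.60 and 6.87, then 10.4 and 22.6 in LMPP, and 4.65 and 3.64, then 8.09 and 7.68 in GMP, higher in batch 2 in all 3 types. Fen1 shares 1909 exon bases with Gm10143 and 130 with Tmem258 on the other strand.

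Rrm2 (chr12:24708241-24714146), the small subunit of ribonucleotide reductase, whose level is known to follow S phase, was at 45.2 and 62.1 TPM in batch 1 and 122 and 55.2 TPM in batch 2 of LMPP, 78.2 and 52.7 TPM in batch 1 and 293 and 346 TPM in batch 2 of CLP, and 83.02 and 84.3 TPM in batch 1 and 116 and 122 TPM in batch 2 of GMP. The CLP libraries of batch 2 stood above the other 10 libraries, which reached at most 122 TPM. Tyms (chr5:30058202-30073617), thymidylate synthase, was at 122 and 148 TPM in batch 1 and 133 and 163 TPM in batch 2 of LMPP, 160.4 and 135 TPM in batch 1 and 348 and 404 TPM in batch 2 of CLP, and 156 and 161 TPM in batch 1 and 181 and 187 TPM in batch 2 of GMP. The same CLP libraries stood above the other 10, which reached at most 187 TPM. In CLP the rise was 2.29 ± 0.322 for Rrm2 (adjusted p = 0.000663), 1.34 ± 0.153 for Tyms (adjusted p = 0.000221) and 1.02 for Rrm1, the large subunit of the reductase (adjusted p = 0.00141). All 3 calls held without any 1 library, and none was called in LMPP or GMP. The ratio of Rrm2 to Rrm1 within a library was 1.11 and 0.825 in CLP of batch 1 and 2.09 and 2.602 in CLP of batch 2, against 0.607 to 1.45 in LMPP and GMP. Over both batches no nucleotide gene was called between types; Rrm2 had the largest fitted difference, LMPP minus CLP of -1.11 with an interval from -1.89 to -0.33 (adjusted p = 0.0704).

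**Figure D4:**
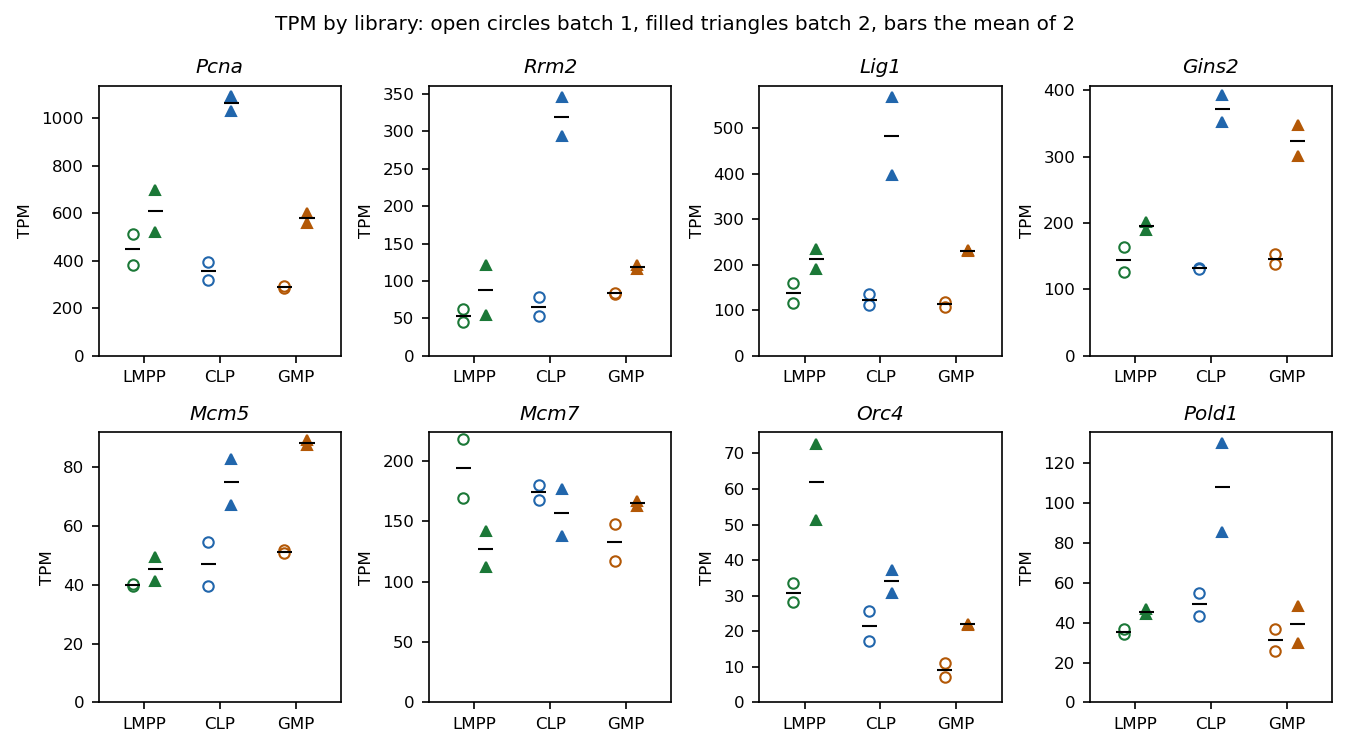
Each panel gives the TPM of 1 gene in every library by type, open circles for batch 1, filled triangles for batch 2 and bars for the mean of the 2. Pcna, Rrm2 and Lig1 are highest in CLP of batch 2, Gins2 and Mcm5 rise in CLP and GMP, Mcm7 is lower in batch 2 of LMPP and higher in batch 2 of GMP without a call in either, and Orc4 has its lowest mean in GMP.

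Whether the change between batches differed between types was tested directly. The change was larger in CLP than in LMPP for 10 members (5.9% of all genes were called in that direction) and smaller for none of the 42, with an unadjusted p under 0.05 for 17 by limma. These were Rrm2 (1.67), Lig1 (1.31), Rfc4 (1.23), Tyms (1.21), Pola1 (1.19), Rrm1 (1.17), Pcna (1.13), Gins2 (1.04), Gins1 (0.89) and Mcm4 (0.74), with adjusted p from 0.0118 for Tyms to 0.0497 for Rrm2. The count was 0 without batch 1 replicate 2 of LMPP, 1 without batch 1 replicate 2 of CLP and 1 without batch 2 replicate 3 of LMPP. With the haemoglobin-rich LMPP and CLP libraries left out it was 16. Other scalings gave 6 (median ratios, 4.64% of all genes), 1 (quantile, 2.63%) and 6 (mitochondrial and ribosomal RNA genes removed, 3.54%). Between CLP and GMP the change differed for Tyms alone (1.13 ± 0.216, adjusted p = 0.0182, against 3.02% of all genes), lost without batch 1 replicate 2 of CLP or any 1 GMP library (adjusted p 0.0679 to 0.0835). Without batch 2 replicate 1 of CLP 8 were called (4 larger and 4 smaller), and without batch 2 replicate 1 or 3 of LMPP 3 were. Other scalings called 2 larger in CLP by median ratios (3.59% of all genes), 3 smaller by quantile normalization (2.82%), and 1 larger and 3 smaller without mitochondrial and ribosomal RNA genes (2.53% and 2.8%). All of these comparisons share the CLP libraries.

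The types were also compared within each batch. In batch 1, LMPP and CLP differed in 1 member (Pola1, against 6.36% of all genes). LMPP and GMP differed in 4 (20.0%), all higher in LMPP (9.52%, against 15.6% of all genes). CLP and GMP differed in 1 (Orc4, 1.15, adjusted p = 0.0147, against 16.9%). The 4 higher in LMPP than in GMP were Orc4, Pola1, Pcna (0.61) and Mcm4 (0.52). In batch 2, LMPP was below CLP for 16 members (38.1%, against 9.4% of all genes) and above for 1 (2.38%, against 13.1%). Rrm2 (-1.94), Tyms (-1.34), Pold1 (-1.19) and Lig1 (-1.17) led those below, with Orc4 above (0.83). LMPP was below GMP for 12 and above for 1 (22.1%), led by Cdc45 (-1.04), Mcm5, Mcm2 and Cdt1 (-0.89), with Orc4 above. CLP was above GMP for 7 (16.7%, against 14.2% of all genes) and below for 3 (7.14%, against 11.5%). Pold1 (1.44), Rrm2 (1.41), Lig1 (1.04) and Tyms (1.02) led those above, and Cdt1 (-0.87), Rfc2 (-0.77) and Mcm6 (-0.52) were below. The median member moved from 0.14 to -0.43 for LMPP minus CLP and from 0.18 to -0.31 for LMPP minus GMP between batch 1 and batch 2. Orc4 was the single member called in the same direction in both batches for LMPP against GMP.

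The batch calls were also counted by the E2F words TTTCGCGC and TTTGGCGC. Members with only the shorter E2F word GGCGGGAA (Orc4, Prim1, Pold1, Rfc4 and Rrm1) were counted as without a word. Of the 10 members with a word, 3 were called higher in batch 2 of CLP and 5 in GMP, and of the 24 without, 12 and 5. Among all genes 21.3% and 6.16% were. Those 12 included Prim1, Pold1, Rfc4 and Rrm1, and the 5 without a word in GMP included Orc4 and Prim1. The median of the members with a word was 0.22 in CLP and 0.72 in GMP, beside 0.70 and 0.46 for those without. None was called in LMPP. These are descriptions of short lists, with no test.

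A further 54 replication genes, among them E2f factors, S-phase cyclins and histone chaperones, were counted in the same fits. In CLP 29 were called higher in batch 2 (53.7%, against 21.3% of all genes) and 2 lower (10.7% of all genes). The largest were E2f2 (3.1), a transcription factor of the E2F family, Dck (2.56), the kinase that salvages deoxycytidine, and Rrm2b (1.96), the other small subunit of ribonucleotide reductase; Rnaseh2a (-0.94) and Ung (-0.68) were lower. In GMP 10 were called higher (18.5%, against 6.16% of all genes) and none lower, led by Chaf1b (1.24), Ccne2 (1.23) and Ung (1.12). In LMPP 1 rose (E2f7, 1.2; 2.19% of all genes) and 1 fell (Dut, -0.93; 2.42%). Between types, 14 were higher in CLP than in GMP (25.9%, against 13.9% of all genes) and none lower (9.96% of all genes), led by E2f2 (2.31), Dck (2.10) and E2f7 (1.62). Within batch 1, 4 were higher in CLP than in GMP (7.41%, against 9.98% of all genes). Within batch 2, 18 were higher (33.3%, against 14.2%) and 2 lower (3.7%, against 11.5%). In LMPP against CLP 6 were lower (11.1%, against 2.8% of all genes) and none higher (7.23% of all genes), led by Asf1b (-1.46), Ccne1 (-1.29) and Ccne2 (-1.28), and in LMPP against GMP 5 were higher (9.26%, against 21.3% of all genes) and 1 lower (1.85%, against 7.62%).

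The change of mitosis genes between batches differed between CLP and GMP. Of 15 mitosis genes, all 15 were called higher in batch 2 of CLP (21.3% of all genes), with a median of 1.82, led by Cenpf (2.52), Cenpe (2.49) and Ccnb1 (2.40). In GMP none was higher (6.16% of all genes) and 4 were lower in batch 2 (2.07%). These were Plk1 (-1.22), Birc5 (-1.17), Ccnb1 (-1.01) and Aurka (-0.83). The GMP median was -0.28, while 13 replication genes were higher. In LMPP 2 were higher (2.19% of all genes), Mki67 (0.87) and Kif11 (0.53). The other 11 were not called in GMP. The difference between the changes in CLP and GMP was called for all 15 mitosis genes, and for Tyms alone among the 42. All were larger in CLP, a direction called for 3.02% of all genes. Under the 3 other scalings the mitosis genes remained at 14 or 15 higher and 0 lower in CLP, and at 0 higher and 3 to 6 lower in GMP. The summed level of the 42 members divided by that of the 15 mitosis genes, in which the library total cancels, was 2.24 and 2.45 in CLP of batch 1 and 1.29 and 1.25 in CLP of batch 2. In GMP it was 2.04 and 2.03 in batch 1 and 4.30 and 4.36 in batch 2, and in LMPP 2.33 and 2.40, then 1.91 and 1.98. The ratio was lower in batch 2 of CLP and higher in batch 2 of GMP, with no overlap between batches in any type.

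**Figure D5:**
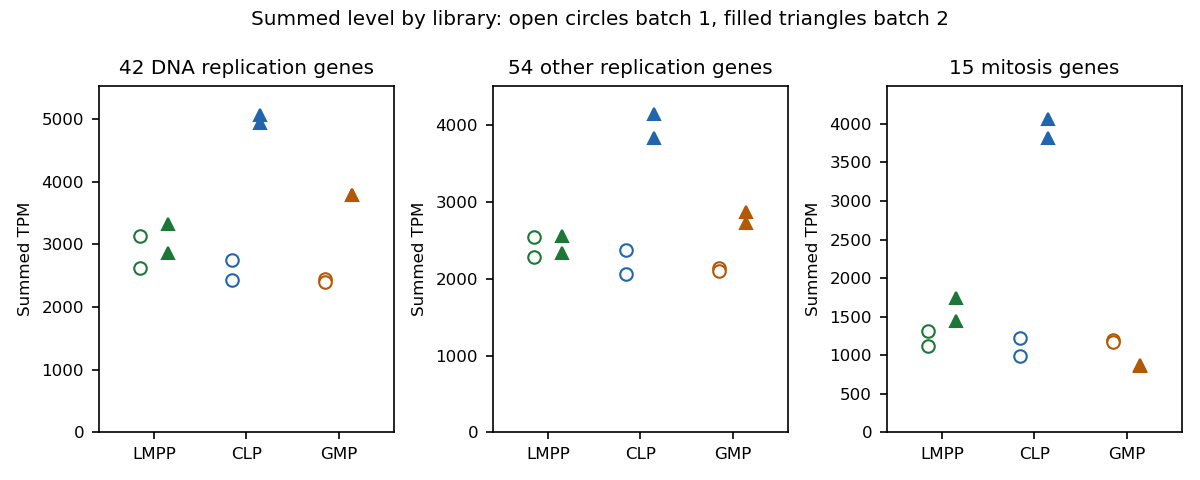
Summed TPM of the 42 replication genes, 54 other replication genes and 15 mitosis genes in every library, open circles for batch 1 and filled triangles for batch 2, on axes that start at 0. In GMP the replication sums are higher in batch 2 and the mitosis sum is lower (1196 and 1178 against 880.4 and 867 TPM), while in CLP all 3 sums are higher in batch 2.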

How the data were processed

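RNA-seq levels of 12 libraries (LMPP, CLP and GMP, 2 libraries of each in each of 2 batches) were taken from a table in TPM deposited by the authors. Per the submitters' processing notes, Bowtie2 2.2.0, RSEM 1.2.12, edgeR 3.10.0 and the mm10 genome were used, with no role or order given. TPM keeps no read depth, so depth per library is unknown and no counting interval is given; column totals ran from 999999 to 1000001. A further 17 columns matched no sample and were not used. Groups, batches and replicate numbers came from the titles.

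Tests ran on log2(TPM + 1) for genes reaching 1 TPM in 4 or more libraries, with a pseudocount of 1 TPM, which understates changes of low genes. Two-sided moderated tests used limma 3.58.1 in R 4.3.3 with an intensity trend. Types were compared with batch as a term (8 residual degrees of freedom). Batches, differences between batch changes and types within a batch used 6 means (6 residual degrees of freedom). Adjusted p is Benjamini-Hochberg over all 12718 genes, and a gene is called at an adjusted p under 0.05. The fit was tested on simulated data.

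Full values are given for the 4 called members with the largest difference in each comparison and direction and for Mcm2, Mcm5, Pcna, Cdt1, Gmnn, Orc1 and Rrm2; for other lists, up to 3 called genes per direction are named. The members and lists were chosen with earlier results of these data known. Alternatives covered pseudocount, filter, scaling, array weights, batch and replicate terms, the samples fitted and leaving out each library.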

Additional observations from a re-analysis of the deposited data

Results flagged for a closer look

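In 126 groups of 4 libraries of a type, chance would set apart 1 library in about 1 in 20 groups, and 2 groups had such a library. Fen1 was at 8.46 TPM in batch 2 replicate 3 of LMPP, with the other LMPP libraries at 20.8 to 23.2 TPM. Mcm2 was at 39.9 TPM in batch 1 replicate 2 of CLP, with the other CLP libraries at 49.2 to 50.3 TPM.

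The change from batch 1 to batch 2 was larger in CLP than in LMPP, by limma's test of the difference, for 10 members (5.9% of all genes). Median ratios called 6 (4.64% of all genes) and quantile normalization 1 (2.63%). The calls also depended on single libraries, as given above. The log2 differences between the changes were 1.67 for Rrm2, 1.31 for Lig1, 1.23 for Rfc4, 1.21 for Tyms, 1.19 for Pola1, 1.17 for Rrm1, 1.13 for Pcna, 1.04 for Gins2, 0.89 for Gins1 and 0.74 for Mcm4. Against GMP the change in CLP was larger for Tyms, by 1.13 (3.02% of all genes were called in that direction). That call was lost with quantile normalization.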

How the results depend on the processing

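Of the alternatives run for single called genes, 826 kept the call, 328 lost it and 0 reversed it. The counts of called members moved as follows, and the cause was not tested. The share of all genes called was not counted for the pseudocount, filter, array weight and model term runs. It was also not counted for the runs that left libraries out. These counts therefore cannot be set against all genes. For the LMPP batches 6.02% of all genes were called with quantile normalization and 7.11% without mitochondrial and ribosomal RNA genes. For LMPP against CLP (2 called) the count was 1 with a pseudocount of 0.1 TPM, array weights, the haemoglobin-rich libraries left out or batch 1 alone, 0 without a filter, without a batch term or with only the 2 types, 5 with median ratios, 17 in batch 2 alone, and 0 to 3 without 1 library. For LMPP against GMP (5 called) it was 13 with median ratios or batch 2 alone, 9 with array weights, 1 without a batch term, and 2 to 6 without 1 library. For CLP against GMP (3 called) it was 5 with quantile normalization (23.7% of all genes), 10 in batch 2 alone, 1 without a batch term, in batch 1 alone or with both batch 2 libraries of CLP omitted, and 2 to 6 without 1 library. For the CLP batches (22 called) it was 11 with only CLP libraries and 12 to 24 without 1 library. For the LMPP batches (0 called) it was 1 with quantile normalization, 3 without mitochondrial and ribosomal RNA genes, 6 without the haemoglobin-rich libraries, and 0 to 3 without 1 library. For the GMP batches (13 called) it was 2 with median ratios, 4 with quantile normalization, 20 without mitochondrial and ribosomal RNA genes, 27 with array weights, 24 with only GMP libraries, and 1 to 14 without 1 library. For the change in CLP against LMPP (10 called) it was 5 without a filter, 6 with median ratios or without mitochondrial and ribosomal RNA genes, 1 with quantile normalization or array weights, 16 without the haemoglobin-rich libraries, and 0 to 12 without 1 library. For CLP against GMP changes (1 called) it was 2 with median ratios, 3 with quantile normalization or array weights, 4 without mitochondrial and ribosomal RNA genes, 8 without the haemoglobin-rich libraries, and 0 to 8 without 1 library. Members' medians moved too. LMPP minus CLP (-0.15) was -0.32 with median ratios, 0.14 in batch 1, -0.43 in batch 2, -0.023 when both batch 2 libraries of CLP were omitted, and -0.24 to -0.04 without 1 library. LMPP minus GMP (-0.06) was -0.34 with median ratios, -0.17 with quantile normalization, 0.037 without mitochondrial and ribosomal RNA genes, 0.18 in batch 1, -0.31 in batch 2, and -0.15 to 0.02 without 1 library. CLP minus GMP (0.05) was -0.075 with both batch 2 libraries of CLP left out and 0.02 to 0.11 without 1 library. The CLP batch median (0.60) was 0.41 with median ratios, 0.19 with quantile normalization, and 0.51 to 0.70 without 1 library. The LMPP one (0.05) was -0.076 with median ratios, -0.12 with quantile normalization, 0.22 without mitochondrial and ribosomal RNA genes, -0.074 without the haemoglobin-rich libraries, and -0.074 to 0.14 without 1 library. The GMP one (0.56) was 0.27 with median ratios, 0.31 with quantile normalization, 0.69 without mitochondrial and ribosomal RNA genes, and 0.52 to 0.59 without 1 library. Deviations of same-numbered libraries from the mean of their type and batch had correlations of -0.106 to 0.169. The highest was between batch 2 replicate 1 of LMPP and of CLP, the haemoglobin-rich libraries. With 2 libraries per type and batch, the correlations cannot show whether the numbers pair the libraries. With a replicate block LMPP against CLP had 0 called and a median of -0.041, LMPP against GMP 1 and 0.04, and CLP against GMP 3. Unknown depth limits what can be said of the lowest members.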
